A study of Mus musculus with 18 samples.

Results

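The RNA of inguinal fat cells is described here by abundance: which genes gave most of the reads, what those genes do, how the other genes spread over the range of levels, and which abundant genes differed most between mice. The 6 samples labelled iWAT adipocytes were used, out of 18 samples in a series that also holds eWAT adipocytes and BAT tissue. iWAT is the inguinal white fat pad, which lies under the skin. Each sample came from a wild-type male mouse of strain C57BL/6 (C57BL/6J in the protocol), 16 weeks old and fed regular chow, and carried the number of its mouse in its title (7, 11, 12, 13, 14 and 15). The fat pad was digested with collagenase and strained, and the cells that floated were taken as mature adipocytes, so the fraction was chosen by buoyancy and not by a marker. No treatment or second genotype was among these 6 samples, and everything below is therefore a description with no test between groups.

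All 53445 rows of the deposited table entered, a row being a gene locus whose transcripts were merged. Rows were ranked by the mean of RPKM, the reads on a row scaled by its length and by the total of reads of the sample, over the 6 mice. Between 22929576 and 32141048 reads stood behind the RPKM of a sample, and at these depths 3 reads on a row of 1000 bp correspond to an RPKM of 0.0933 to 0.131. Values are given as mean ± SD with n = 6, or as the lowest, median and highest sample.

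A mature white adipocyte is built around a single large droplet of triglyceride. It takes up fatty acids that lipoprotein lipase frees from circulating lipoproteins, makes others from glucose, esterifies them on glycerol 3-phosphate, and releases them again by lipolysis under the control of insulin and catecholamines. The droplet is coated with perilipins, the plasma membrane is dense with caveolae, and the cell secretes hormones and carrier proteins such as adiponectin, leptin and adipsin. The genes of these tasks filled the top of the ranking among the nuclear genes, below a set of rows that carried mitochondrial sequence.

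The 6 highest nuclear genes with a name were Fabp4, Cfd, Car3, Scd1, Gsn and Adipoq. Fabp4, the cytoplasmic fatty acid-binding protein of fat cells (chr3:10204342-10208576 in mm9, minus strand, 4 exons), ranged from 7663 through a median of 10660.3 to 12368 RPKM, with mouse 7 the lowest and mouse 13 the highest. Cfd, which encodes adipsin or complement factor D (chr10:79353598-79355401, 5 exons), lay between 4263 and 5107 RPKM in 5 mice and at 7772 in mouse 11. Car3, a cytosolic carbonic anhydrase (chr3:14863509-14872532, 6 exons), was narrower, from 3952 to 5282 RPKM around a median of 4333. Scd1, the desaturase that makes oleate and palmitoleate (chr19:44466831-44482199, 6 exons), was the widest of the 6 and spanned 2058 RPKM in mouse 14 to 6138 in mouse 7. Gsn, the actin-severing protein gelsolin, averaged 2064 ± 260 RPKM. Adipoq, which encodes adiponectin, averaged 1854 ± 237 RPKM.

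RPKM divides by length, so rank by RPKM and rank by reads were not the same. The Scd1 row, 6946 bp long, took 2.59 ± 1.01% of all reads on rows, the largest share of any nuclear gene. Car3 took 1.72 ± 0.159% and Lpl 1.03 ± 0.0634%, while Fabp4, with a row of 642 bp, took 0.664 ± 0.111%. Fabp4 thus stood above Scd1 in RPKM and below it in reads.

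**Figure D1:**
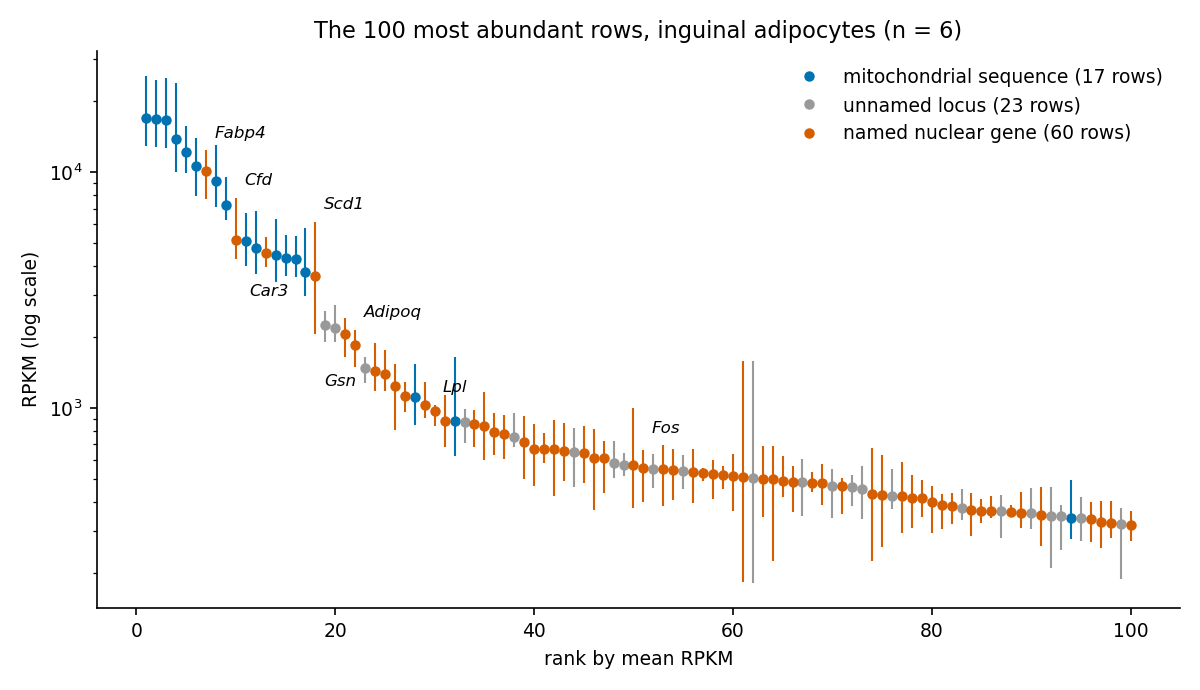
RPKM on a log scale against rank for the 100 most abundant rows. Points are the mean of 6 mice and lines run from the lowest to the highest mouse. Mitochondrial sequence holds 17 of the 100 rows and 8 of the first 9; Fabp4 at 10143 RPKM is the highest nuclear gene, and the long line at rank 61 is Rn18s, from 182 to 1586 RPKM.

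The highest rows of all carried mitochondrial sequence, and most of their reads had been assigned to a nuclear copy. The mitochondrial genome encodes subunits of the respiratory chain and ATP synthase, along with ribosomal and transfer RNAs. A stretch of chromosome 1 (chr1:24618374-24623027, mm9) matched positions 6390 to 11042 of the mitochondrial genome at 4651 of 4654 aligned positions, with 2 substitutions and 1 gap base. The substitution that lay away from the edge of the match is shown with 20 bases on either side, written along the mitochondrial plus strand, with the differing base in capitals (T9461C: the mitochondrial base, its position on the mitochondrial genome, then the base of the copy). A read from most of this stretch fits both places equally well.
mitochondrial genome, chrM:9441-9481, plus strand: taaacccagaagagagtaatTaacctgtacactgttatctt
nuclear copy, chr1:24619936-24619976, minus strand: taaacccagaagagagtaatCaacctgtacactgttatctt

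Rows on this chromosome 1 copy took ranks 1 to 4 and 6. LOC100503946, over the sequence of mt-Co2, mt-Atp8, mt-Atp6 and part of mt-Co3, had the highest mean of any row, at 16949 ± 4744 RPKM, and ranged from 12938 in mouse 15 through a median of 15689 to 25515 in mouse 14. The rows named COX2 (here the mitochondrial subunit of cytochrome oxidase, not cyclooxygenase), COX3 and ND4L averaged 16589, 13811 and 10633 RPKM. The rows placed on the mitochondrial genome itself and lying wholly within the copied stretch were far lower: the highest of them averaged 30.2 RPKM and the row ND3 5.99 RPKM. The row COX1, which starts outside the stretch and ends inside it, averaged 9180 ± 2205 RPKM. Mitochondrial rows outside the stretch had high values of their own, 12161 ± 2241 RPKM over mt-Cytb, 5076 ± 1027 over mt-Nd2 and 3770 ± 1074 over mt-Rnr2 and mt-Nd1.

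Across the ranking, 30 rows lay on the mitochondrial genome (14 rows) or on a nuclear copy of it (16 rows). They held 22.6 ± 4.72% of the reads on rows, from 18.1% in mouse 12 to 30.6% in mouse 14. Several of these rows overlap and count the same reads, and a set of 20 that do not overlap held 12.8 ± 3.03% of the total reads, from 10.1% to 18.0%, again with mouse 14 the highest. Overlap was counted on both strands: ND5 and ND6, which lie on opposite strands and share 2329 bases, differed by about 1% in RPKM in every mouse, their ratio lying between 0.990 and 0.992. Levels of a gene and of another on the opposite strand at the same place cannot be told apart in this table.

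A few rows held a large part of the reads. The top 10 rows took 18.3 ± 3.85% of the reads on rows, the top 100 took 39.4 ± 3.97% and the top 1000 took 60.3 ± 2.73%. With each row ranked by its own share, 231 rows were enough for 50% of the reads, between 127 rows in mouse 14 and 327 in mouse 12. Without the 30 rows of mitochondrial sequence the top 10 took 9.16 ± 1.07%, the top 100 took 23.3 ± 0.908% and the top 1000 took 49.0 ± 0.862%, and 651 rows were needed for 50%. The difference between mice was then small as well, since each mouse needed 575 to 686 rows.

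**Figure D2:**
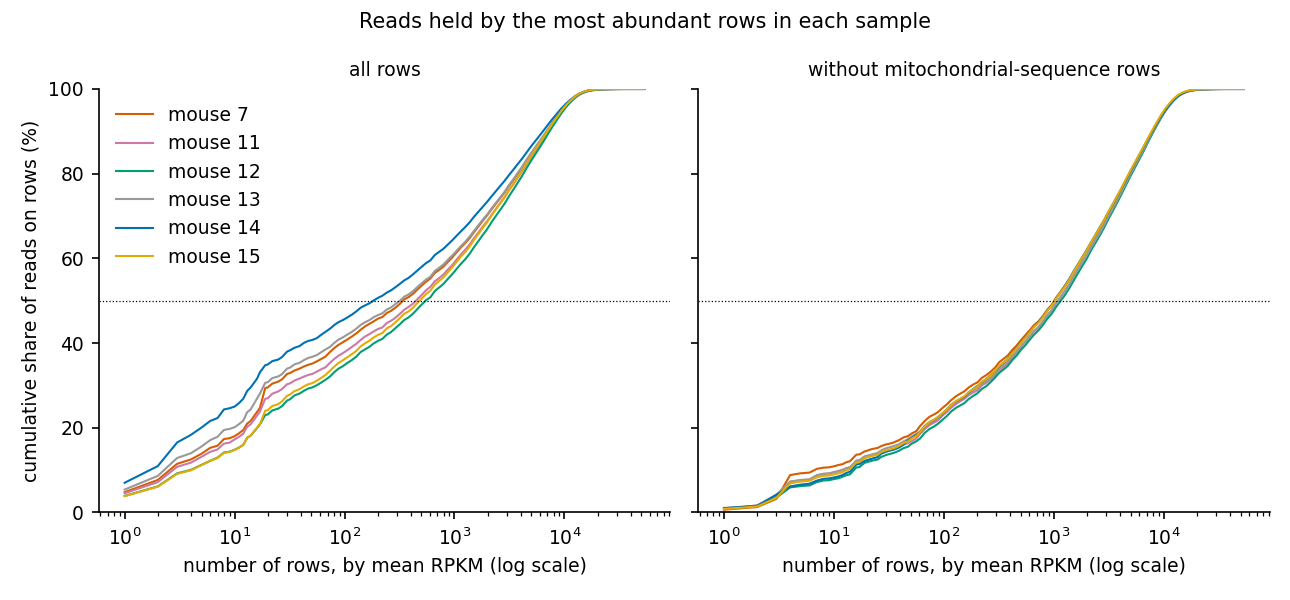
Cumulative share of the reads on rows (%) against the number of rows in order of mean RPKM (log scale), 1 line per mouse, for all rows on the left and without the mitochondrial-sequence rows on the right; the dotted line is at 50%. The lines of the 6 mice spread from 34.8% to 45.7% at 100 rows on the left and from 21.9% to 24.7% on the right.

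The 53445 rows fell into 7 classes of level. The class of 1000 RPKM or more held 29 rows and 30.4 ± 4.32% of the reads, and 15 of the 29 rows were mitochondrial sequence. The next class, 100 to 1000 RPKM, held 398 rows and 20.6 ± 1.17% of the reads, and the class of 10 to 100 RPKM held 3491 rows and 29.4 ± 1.90%. A further 9779 rows lay at 1 to 10 RPKM with 18.4 ± 1.36% of the reads. Below 1 RPKM stood 7273 rows at 0.1 to 1, 15238 rows above 0 and under 0.1, and 17237 rows with no read in any of the 6 mice. Together the 13697 rows at 1 RPKM or more, 25.6% of all rows, held 98.8 ± 0.113% of the reads. The 3918 rows at 10 RPKM or more were 7.33% of all rows, and the 427 rows at 100 RPKM or more 0.799%. Rows without a gene name, 62.2% of all rows, are part of these shares.

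The limits of the classes cut through a continuous range. Ubb, a ubiquitin gene, was the last row above 1000 RPKM at 1023 ± 137, and Lpl, at 967 ± 67.8, was the first below it. At 100 RPKM the nearest named genes under the limit were Gm2a at 99.4 ± 10.9, Scp2 at 99.2 ± 7.55 and Klf4 at 99.0 ± 17.1. At 10 RPKM the nearest rows were Arid5b at 10.0 ± 6.73 on the upper side and ENSMUSG00000071640, then Acp2, on the lower. In each case the distance to the limit was smaller than the SD between mice.

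Row type changed down the classes. Of rows with a RefSeq gene type, 91.2% were protein coding at 100 RPKM or more, 94.7% at 1 to 10 RPKM and 74.3% among rows with no read. Rows named only by an accession, locus or gene model number made up 40.3% of the rows at 100 RPKM or more and 78.2% of those with no read. Of the 157 such rows at 100 RPKM or more outside mitochondrial sequence, 100 overlapped a named row, as Gm1821 did with Ubb, so they often showed the same reads a further time. The middle row length was 1389 bp at 100 RPKM or more and 3928 bp at 1 to 10 RPKM.

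The 100 highest named nuclear genes, which reached down to 221 RPKM, held 18.1 ± 1.22% of the reads on rows. Their functions were assigned after their values were seen. The 16 genes of lipid storage and use held 7.02% of the reads, 7 enzymes of other pathways 2.30% (mostly Car3), 14 secreted proteins 1.88%, 8 genes of the cytoskeleton and membrane coat 1.5%, 11 immediate-early and acute-response genes 1.23% and 11 genes of redox and metal handling 0.887%. Genes of the other groups, among them ubiquitin and lysosomal proteins, matrix, antigen presentation and ribosomes, held less than 1% each.

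Among the genes of the droplet and of lipolysis, 15 of 18 rows were at 10 RPKM or more and 7 at 100 or more. Cidec, which lets droplets fuse into one, averaged 1233 ± 249 RPKM, and the droplet coat genes Plin4 and Plin1 averaged 841 ± 216 and 521 ± 43.1 RPKM. The 3 lipases that act in turn on triglyceride, diglyceride and monoglyceride followed in the same order, with Pnpla2 at 531 ± 27.0, Lipe at 318 ± 37.3 and Mgll at 273 ± 54.7 RPKM. Pnpla2 and Lipe did not overlap in any mouse, since Pnpla2 was never below 487 RPKM and Lipe never above 366. At the other end Cideb, a liver relative of Cidec, and Fitm1, a relative of Fitm2 known from muscle, averaged 0.242 and 0.0792 RPKM.

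Uptake, synthesis and esterification of fatty acids were spread more widely. Lpl, the lipase that frees fatty acids from lipoproteins, was among the steadiest of the top 30 rows, with 834, 984 and 1029 RPKM as lowest, median and highest. For synthesis, 13 of 16 rows passed 10 RPKM, led by Scd1, Fasn at 433 ± 184 and Pcx at 161 RPKM. Elovl3 and Fads2 stood under 1 RPKM. For triglyceride assembly, Dgat2, which adds the last fatty acid, averaged 882 ± 188 RPKM and its unrelated counterpart Dgat1 50.5 RPKM. Pck1 and Gpd1, which supply glycerol 3-phosphate, averaged 641 ± 118 and 387 ± 50.4 RPKM.

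Caveolae, the flask-shaped pits of the fat cell membrane, were the function with the largest part of its rows at 100 RPKM or more, 8 of 12, among the lists of function examined here. The 12 rows stand for 9 genes, some with more than 1 row, and the part by gene was not counted. Cav1, their main structural protein, averaged 853 ± 103 RPKM and the cavin gene Ptrf 270 ± 57.4. The muscle forms Murc and Cav3 averaged 0.315 and 0.0219 RPKM.

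Secreted proteins of fat cells had 4 of 22 rows above 1000 RPKM (Cfd, Adipoq, Apoe and Hp). Apoe, a carrier of lipoproteins, averaged 1436 ± 263 RPKM, and Hp, the haemoglobin-binding haptoglobin, 1398 ± 204. Lep, which encodes leptin, averaged 499 ± 197 RPKM and was low in mice 7 and 11, at 308 and 225, against 485 to 691 in the other 4. Retn, which encodes resistin, ran from 239 to 338 RPKM. Fst, also on the list, averaged 0.531 RPKM.

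Genes for transcription factors and insulin signalling mostly lay under 100 RPKM. Of 20 rows for adipocyte transcription factors, 2 passed 100 RPKM, Cebpa at 305 ± 46.1 and Pparg at 104 ± 10.3, and 11 passed 10 RPKM. Of 19 rows for insulin signalling, none passed 100 RPKM and 11 passed 10. Slc2a4, the insulin-responsive glucose transporter, averaged 47.9 ± 3.27 RPKM and Insr, the insulin receptor, 15.5 ± 3.15. Of 8 thermogenic genes, Cox8b passed 10 RPKM, at 69.3 ± 15.1. Ucp1, the uncoupling protein of brown and beige fat, ranged from 0.494 RPKM in mouse 15 through a median of 2.76 to 5.76 in mouse 14.

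Mitochondrial oxidation formed a broad middle layer. All 14 rows of the tricarboxylic acid cycle lay between 10 and 100 RPKM, from Suclg2 at 14.8 to citrate synthase (Cs) at 68.6, with a median CV of 6.81%, where CV is the SD between mice as a percent of the mean. For fatty acid oxidation 14 of 17 rows passed 10 RPKM, and for branched-chain amino acid breakdown 14 of 15 did. Among nuclear genes of the respiratory chain and ATP synthase 68 of 92 rows passed 10 RPKM and 11 passed 100, led by Cox8a at 314 ± 44.4 and Cox4i1 at 302 ± 47.8. Of these 68 rows, 54 were highest in mouse 14, while mouse 14 was highest in 1439 of all 3918 rows at 10 RPKM or more.

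Immediate-early genes, which encode transcription factors and regulators switched on within minutes of a stimulus, stood high for control genes: 15 of 30 rows passed 100 RPKM and 25 passed 10, and all 30 passed 1. Fos ranged from 397 through a median of 570 to 665 RPKM and Egr1 from 385 through 553 to 694. Zfp36, which destabilises inflammatory mRNAs, and Jun each averaged 487 RPKM, with SDs of 72.8 and 78.4. The levels of Fos did not overlap those of Cebpa, which never exceeded 377 RPKM. None of the 25 rows at 10 RPKM or more had a CV of 50% or more, where 2.83% of all 3918 such rows did. At that rate 25 rows would hold few such rows or none, so this count does not set the list apart. Mouse 7 was the highest in 11 of the 25, against 7.40% of all 3918 rows. Below 10 RPKM the spread was wider in places, as in Ctgf at 1.32 ± 1.22 RPKM.

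**Figure D3:**
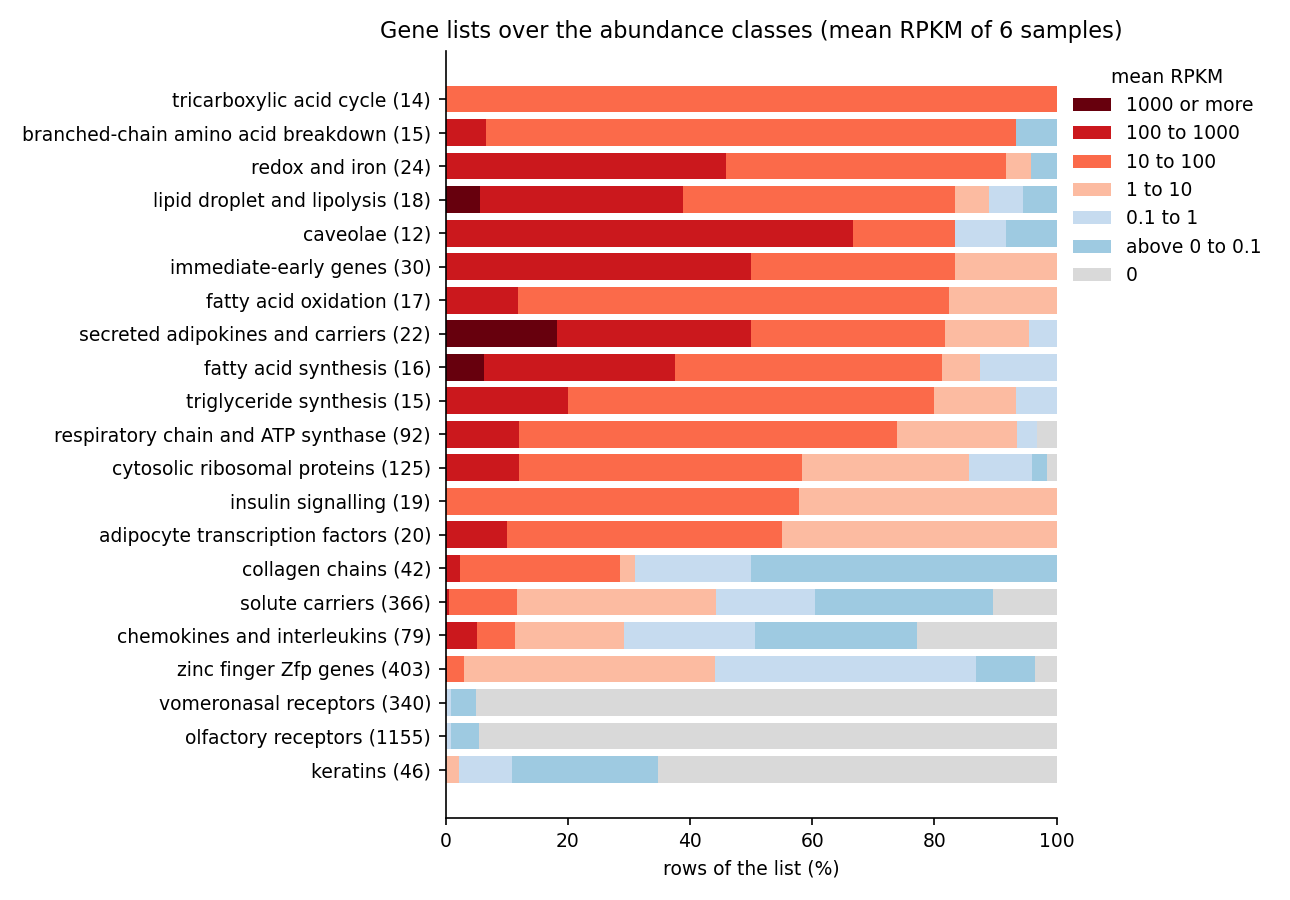
Share of the rows of each gene list (%, number of rows in brackets) in each class of mean RPKM over the 6 mice. The lists are ordered by the share at 10 RPKM or more, from the tricarboxylic acid cycle with 14 of 14 rows down to olfactory receptors, vomeronasal receptors and keratins with none.

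Receptor and keratin families of other tissues were nearly all in the lowest classes, where most rows were unnamed loci. Of 1155 olfactory receptor rows 1092 had no read in any mouse and 1 passed 1 RPKM (Olfr558 at 1.10 ± 0.250). Vomeronasal receptors had 323 of 340 rows at 0 and keratins 30 of 46. Other large families spread over the classes. Of 366 solute carrier rows 43 (11.7%) passed 10 RPKM, and of 403 Zfp zinc finger rows 12 (2.98%) did, although 178 of the latter lay above 1 RPKM. Among 42 collagen chain rows 12 passed 10 RPKM, led by the basement membrane chains Col4a1 at 132 ± 17.9 and Col4a2 at 86.2. Hox genes reached 10 RPKM in 3 of 39 rows (7.69%), all of the C cluster, with Hoxc8 at 43.9 ± 6.73. Over all rows the share was 7.33%. Unnamed rows were 62.2% of all rows and 32.0% of those at 10 RPKM or more. The share among named rows alone is therefore higher than 7.33%.

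Some genes expected in every cell were low in this table, and their sequence has near-identical copies. Gapdh, a glycolytic enzyme commonly used as a reference gene, averaged 0.523 ± 0.102 RPKM, and Pgk1, the enzyme directly after it in glycolysis, 2.65 ± 0.375 RPKM. Aldoa, Tpi1 and Pgam1, other enzymes of the pathway, averaged 247, 90.5 and 70.6 RPKM. The coding sequence of Gapdh had 67 further matches in mm9 of at least 95% identity over at least 80% of the coding length, the most of 411 genes searched from 11 lists. Rpl21, with 56 such matches, was the next and averaged 0.494 ± 0.126 RPKM, whereas Pgk1 and Pgam1 had 2 each. Among 85 genes for cytosolic ribosomal proteins the median was 46.0 RPKM over the 14 without a match, 17.3 over 30 with 1 to 4 matches and 24.5 over 41 with 5 or more. Over all 411 genes the medians were 29.6 RPKM without a match and 31.7 with 5 or more, and Eef1a1, with 6 matches, averaged 177 ± 22.1 RPKM. How reads that fit several places were assigned is not given in the sources used here, and its part in these values was not tested.

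Promoters were compared in RefSeq windows (GRCm38.p6) from 250 bases before to 50 bases after a start site, of which 20295 belonged to protein-coding genes of the table. The letters TATAAA on the sense strand between positions -40 and -20 were in 4.93% of 223 promoters at 100 to 1000 RPKM, in 1.37% of 2486 at 10 to 100, in 0.741% of 7283 at 1 to 10 and in 6.26% of 3725 with no read, against 2.45% of all 20295 and 1.87% of all 32851 windows of the same length. None of 12 promoters at 1000 RPKM or more held the letters. The share was thus lowest in the middle of the range and higher at both ends except among the few promoters at the very top. Median GC content was 61.0% at 100 to 1000 RPKM and 44.3% among genes with no read.

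The 11 promoters with the letters at 100 to 1000 RPKM were those of H2-D1, Fos, Cyp2e1, Cebpa, Vim, Mknk2, Rbp4, Ptp4a1, Btg1, Gadd45g and H3f3b, and the letters began between positions -33 and -26. The 60 bases before the start site are shown for 6 of them, chosen to span antigen presentation, stimulus response, a liver-type cytochrome P450, fat cell control, the cytoskeleton and retinol transport, with TATAAA in capitals, and for the secreted proteins Cfd and Adipoq, which lacked these letters.
H2-D1, chr17:35263034-35263093, plus strand: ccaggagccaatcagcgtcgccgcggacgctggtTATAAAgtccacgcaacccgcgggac
Fos, chr12:85473830-85473889, plus strand: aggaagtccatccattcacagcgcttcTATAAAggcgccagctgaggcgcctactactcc
Cyp2e1, chr7:140763759-140763818, plus strand: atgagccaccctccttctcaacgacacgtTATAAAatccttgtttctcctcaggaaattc
Cebpa, chr7:35119233-35119292, plus strand: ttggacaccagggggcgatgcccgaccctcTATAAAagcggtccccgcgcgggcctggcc
Vim, chr2:13574251-13574310, plus strand: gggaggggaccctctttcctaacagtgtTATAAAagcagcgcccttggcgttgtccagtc
Rbp4, chr19:38124812-38124871, minus strand: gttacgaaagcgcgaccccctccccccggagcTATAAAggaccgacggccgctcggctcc
Cfd, chr10:79890793-79890852, plus strand: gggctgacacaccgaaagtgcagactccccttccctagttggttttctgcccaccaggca
Adipoq, chr16:23146476-23146535, plus strand: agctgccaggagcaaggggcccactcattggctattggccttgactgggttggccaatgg

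The label of the fraction was checked against marker genes. All 9 rows for adipocyte markers lay above 10 RPKM, and their sum ranged from 16755 RPKM in mouse 7 to 21723 in mouse 13. Lymphocyte markers had none of 8 rows above 1 RPKM, and among epithelial markers Epcam, Krt5, Krt8, Krt14 and Krt18 had no read in any mouse, which allows up to 3 reads in a sample. Markers of other cells were present at lower sums than those of adipocytes. Red blood cell markers summed to 115 to 813 RPKM, with 3 of 7 rows at 100 RPKM or more, and skeletal muscle markers to 6.00 to 76.9. The endothelial markers summed to 57.7 to 322 RPKM (7 of 9 rows above 1 RPKM), the macrophage markers to 27.1 to 160 (7 of 8), the mural cell markers to 36.3 to 118 (5 of 7) and those of adipocyte precursors and fibroblasts to 102 to 178 (6 of 8), the last with Pdgfra at 0.154 RPKM. In bulk samples fewer cells of a type and less RNA per cell cannot be told apart.

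The spread of abundant rows between mice was mostly above counting error. Over the 3918 rows at 10 RPKM or more the median CV was 13.5%, where counting error alone gives a median of 2.49%. A CV under 10% was found in 1017 rows, and in 478 rows the highest mouse had over 2 times the RPKM of the lowest. The 10 steadiest rows at 100 RPKM or more included Ghitm, a protein of the inner mitochondrial membrane, with a CV of 3.32% (106 to 114 RPKM), Ces1d, a carboxylesterase with lipase activity, with 4.0% (285 to 315 RPKM), the lysosomal genes Ctsb and Psap with 4.35% and 4.54%, and Pnpla2 with 5.08%. Eef2 and Calr were also among them. Another 2 of the 10 carried only locus numbers, and 1 of these, LOC100503665, lay within Calr.

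A CV of 50% or more was found in 111 rows, 2.83% of the 3918, and of 100% or more in 10 rows. Of the 111 rows 47 were highest in mouse 14, 39 in mouse 11, 18 in mouse 7, 6 in mouse 12, 1 in mouse 13 and none in mouse 15. Rows at the beta haemoglobin, Hspa1a and Hspa1b, Rn18s and major urinary protein loci overlap and share reads. These are therefore counts of rows and not of separate genes. Over all 3918 rows mouse 14 was highest in 36.7%, mouse 11 in 11.7% and mouse 7 in 7.40%. These shares are of deposited RPKM and depend on the scaling. With RPKM rescaled by TMM, mouse 14 was highest in 1691 of the 3918 rows, mouse 11 in 642 and mouse 7 in 475. Before rescaling the counts were 1439, 459 and 290. Counts of the highest mouse within lists were not repeated with that scaling. With its own highest mouse left out, 54 of the 111 rows still had a CV of 50% or more. Of the 111 rows 49 were on none of the gene lists and 24 were unnamed. Interferon-induced genes held 10, but that list was put together after values had been seen, so its count is not a finding. Of the other named lists, chemokines and interleukins and the major urinary proteins held the most, 7 each.

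**Figure D4:**
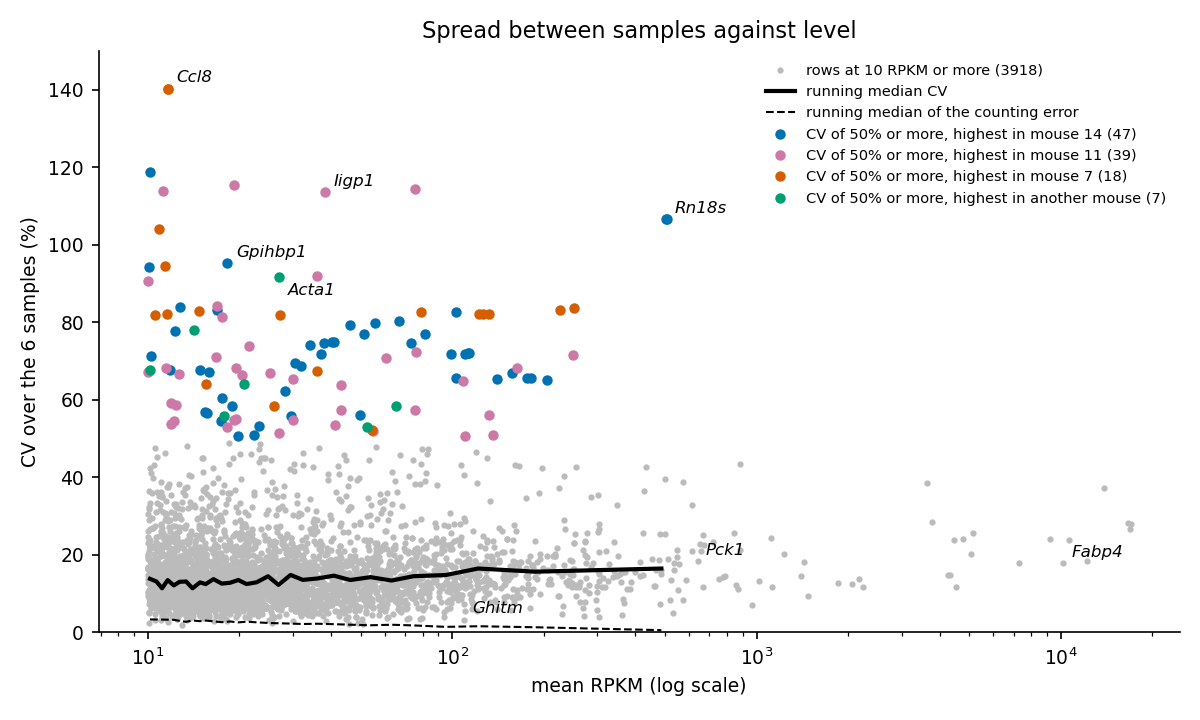
CV between the 6 mice (%) against mean RPKM (log scale) for the 3918 rows at 10 RPKM or more. The solid line is the running median and the dashed line the running median of the counting error. Coloured points are the 111 rows at 50% or more by the mouse with the highest value. Of these, 47 were highest in mouse 14, 39 in mouse 11 and 18 in mouse 7, and some of the rows overlap and share reads.

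Genes of small blood vessels were highest in mouse 14. Cldn5, a tight junction protein of endothelium, had 31.5, 47.6 and 173 RPKM as lowest, median and highest, and the endothelial cadherin Cdh5 had 13.6, 24.3 and 82.2. Gpihbp1, which carries lipoprotein lipase across the capillary wall, averaged 18.3 RPKM with 51.7 in mouse 14, and the water channel Aqp1 averaged 103 RPKM with 270 in mouse 14 and 69.0 over the other 5. Mouse 12 was second in each of these 4 genes and mouse 11 the lowest. Mural cell markers were not uniform. Of 3 such rows at 10 RPKM or more, Rgs5, a pericyte marker, was also highest in mouse 14, at 87.4 RPKM, and lowest in mouse 11, at 14.1, but the other two, Acta2, smooth muscle actin, and Cspg4, were highest in mouse 12. Acta2 had 18.9 RPKM in mouse 12, 16.9 in mouse 15 and 10.2 in mouse 14. Lpl itself was at 986 RPKM in mouse 14 against a median of 984.

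Haemoglobin and 18S ribosomal RNA were also highest in mouse 14. Hbb-b2, a beta chain, ranged from 35.2 RPKM in mouse 15 to 238 in mouse 14, with mouse 11 second at 171, so its order over mice was not that of the endothelial genes. Haemoglobin genes have near-identical copies and their rows share reads. Rn18s, the row of 18S ribosomal RNA, had 182, 290 and 1586 RPKM as lowest, median and highest, and its mean of 506 RPKM fell to 291 without mouse 14. Mouse 14 thus led the mitochondrial share, the vessel genes, the haemoglobins and Rn18s together, and had the second largest number of reads, 31760405. The part of depth, of RNA composition or of other cells in these values was not tested.

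Genes induced by interferon and by inflammatory signals were highest in mouse 11. A list of 19 interferon-induced rows was put together after values had been seen, so its counts are not independent of them. In it 13 of the 15 rows at 10 RPKM or more were highest in mouse 11, as were 11.7% of all 3918 such rows. The sum of the list was 1563 RPKM in mouse 11 against 290 to 771 in the others. Iigp1, an interferon-induced GTPase, had 8.50, 22.6 and 123 RPKM as lowest, median and highest, and its mean of 38.2 RPKM was 21.3 without mouse 11. Cxcl10, a chemokine of the same response, ranged from 58.1 to 348 RPKM. Il6, a cytokine, and Ptx3, a secreted pattern recognition protein, were highest in mouse 11 as well, at 46.0 and 558 RPKM. Mouse 13 was the lowest in Iigp1, Cxcl10, Il6 and Ptx3.

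Macrophage genes and the major urinary proteins were highest in mouse 7. The chemokine Ccl8 had the largest CV of any row at 10 RPKM or more, 140%, with 0.986 RPKM in mouse 14, a median of 4.18 and 43.6 in mouse 7, and its mean of 11.7 RPKM was 5.29 without mouse 7. C1qa and C1qb, complement genes of tissue macrophages, reached 32.7 and 31.9 RPKM in mouse 7 and stayed under 15 RPKM in the others. The sum of the macrophage markers was 160 RPKM in mouse 7 and 85.8 in mouse 11, against 27.1 to 39.9 in the other 4. The major urinary proteins, a family of near-identical genes known from liver, had 7 rows at 10 RPKM or more, and all 7 had a CV of 50% or more and were highest in mouse 7. The rows Mup2, Mup15, Mup17 and Mup19 overlap and share reads, so the 7 rows are not separate observations. Mup7, the highest row of the family, ran from 46.3 RPKM in mouse 14 to 570 in mouse 7.

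Fat synthesis differed between mice too. Mouse 7 was the highest in 8 of the 13 rows at 10 RPKM or more, against 7.40% of all 3918 such rows. The sum of the list was 7768 RPKM in mouse 7 and 3101 in mouse 14, most of it from Scd1. Fasn ranged from 223 RPKM in mouse 13 through a median of 429 to 675 in mouse 7, and the elongase Elovl6 from 5.34 in mouse 14 to 32.5 in mouse 7. Of the 13 rows, Elovl6 alone had a CV of 50% or more. Among rows at 10 RPKM or more, 0 of 15 for droplet and lipolysis, 0 of 8 for uptake, 0 of 12 for triglyceride synthesis and 0 of 10 for caveolae reached that CV. Over all 3918 such rows the share was 2.83%, and at that rate lists of these sizes would hold few such rows or none. These counts therefore do not set the lists apart.

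Mice 7 and 11 stood together at the low end for Lep and for 2 further variable genes, Mest and Sfrp5, which were singled out after their values were seen. Mest, an imprinted gene known to vary with fat mass, had 21.3 and 16.7 RPKM in mice 7 and 11 and 74.1 to 112 in the other 4. Sfrp5, a secreted inhibitor of Wnt signals, had 21.4 and 14.6 RPKM in mice 7 and 11 and 56.9 to 78.0 in the others. Neither gene overlapped between these 2 mice and the other 4. The split was drawn from such values, so the lack of overlap tests no grouping of the mice. Other variable rows had the same split, so it was not particular to these genes. Ddit4 had 2.99 and 3.66 RPKM in mice 7 and 11 and 11.2 to 32.3 in the others. Nedd9 had 8.33 and 8.35 RPKM against 13.9 to 33.9. How many of all rows split in this way was not counted. Mice 7 and 11 were also the highest for the summed macrophage markers.

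Smaller groups were led by other mice. Hspa1a and Hspa1b, near-identical heat shock genes whose rows share reads, were highest in mouse 14 and next in mouse 12, with Hspa1b between 57.6 and 318 RPKM. Acta1, the actin of skeletal muscle, ranged from 4.72 RPKM in mouse 11 to 68.2 in mouse 12, while Ckm averaged 1.07 RPKM and none of the other muscle markers passed 1. The clock gene Dbp had 46.1 RPKM in mouse 12 and 11.3 to 21.0 in the other 5.

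**Figure D5:**
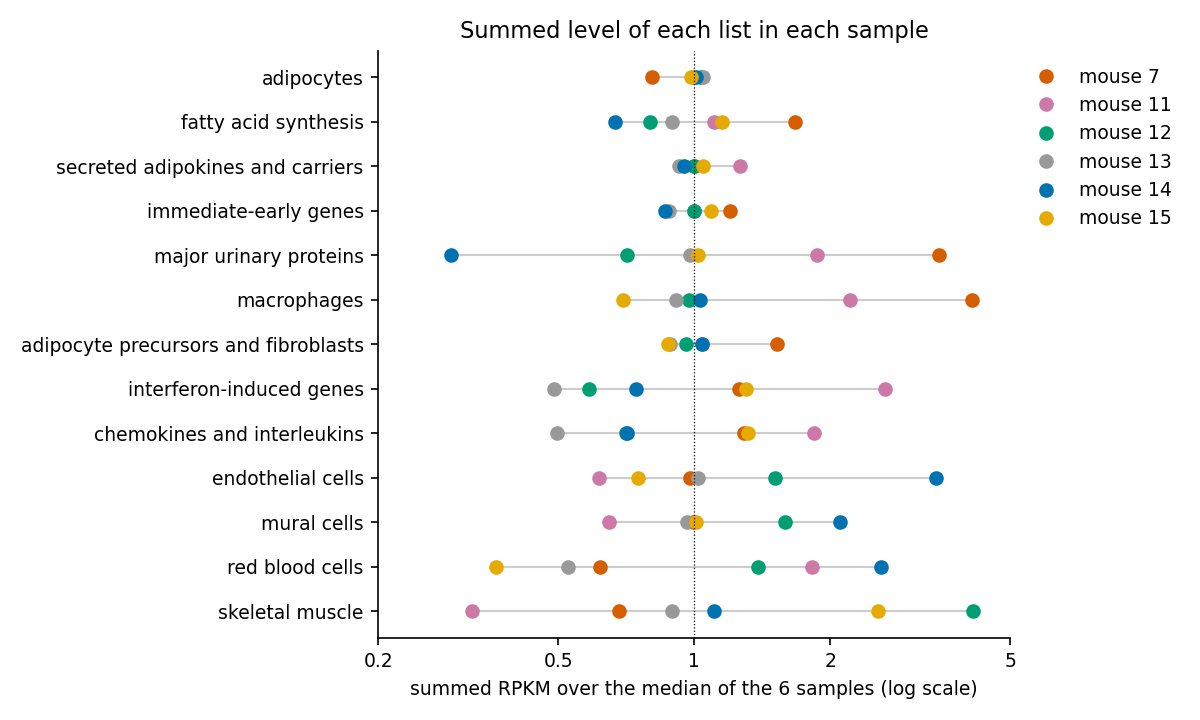
Summed RPKM of 13 gene lists in each mouse, divided by the median of the 6 mice (log scale), 1 point per mouse. The adipocyte markers lie close together apart from mouse 7; the macrophage markers and major urinary proteins are highest in mouse 7, the interferon-induced genes in mouse 11 and the endothelial and mural markers in mouse 14.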

How the data were processed

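Libraries were prepared from RNA of integrity number above 8 (NEBNext Ultra RNA kit) and read on a HiSeq 2500 instrument. The submitters' processing notes name cutadapt 1.16, HISAT2 2.1.0 and the mm9 genome, and the methods of the study the Genomatix Genome Analyzer. The annotation, the use of strand and the treatment of reads that fit several places are not given in the sources used here. The authors deposited, per sample, a count of reads per merged locus and its RPKM, which divides the count by row length and by the sample's total of reads; other columns and the files of eWAT and BAT were not used. Reads on rows came to 94.4 to 104.0% of the total, since overlapping rows counted reads more than once, and 663 rows shared position and length with another row. On all 22 chromosomes the last row ended inside the mm9 sequence. Of 18672 gene symbols also in GENCODE vM1, 98.8% lay at an overlapping position.

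The 6 samples form 1 group, and no test between groups was made. Mean, SD and CV (n = 6) were computed from RPKM with Python 3.11.15, pandas 2.3.3 and numpy 2.4.6; counting error is that of Poisson counts, and it and the floor of 3 reads cover counting error only. Mitochondrial copies (at least 90% identity) and copies of coding sequences were found with blastn 2.17.0. Alternatives rescaled RPKM by TMM (edgeR 4.0.16) and DESeq2 1.42.0 size factors, left out each mouse and changed ranking, denominator and limits. The CV calculation was tested on simulated data. That the samples came from separate mice rests on the numbers in their titles.

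Named genes were the 30 rows of highest mean RPKM, the 10 with the largest read share, the 25 of highest CV at 10 RPKM or more, the 10 of lowest CV at 100 or more, up to 4 leading rows per list with markers at 0, and rows next to a class limit. Others named were chosen after their values were seen. The lists were chosen with earlier results of these data known.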

Additional observations from a re-analysis of the deposited data

Results flagged for a closer look

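Of 115 measures examined over the 6 mice (the rows of highest, most variable and least variable level, the sums of the gene lists, depth and the mitochondrial share), 22 had 1 mouse far from the other 5 by Dixon's ratio at the 95% level, the gap to the nearest mouse over the whole range. Chance flags about 1 in 20 groups, but 25 of the measures were rows chosen for the highest CV, which favours rows with 1 far mouse, so that rate does not hold for them. Those 25 gave 14 of the 22. The other 90 measures gave 8, where 1 in 20 would be 4.5, and several of them share rows or reads. The far mouse was mouse 14 in 8, mouse 11 in 8 and mouse 7 in 6. The causes were not tested.

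Mouse 14 was far above the others for the COX3 row on the mitochondrial copy, at 23805 RPKM against 10004 to 14201, and for Rn18s and LOC790964, which overlap, at 1586 and 1582 RPKM. It was also the high mouse for Aqp1, at 270 RPKM against 47.0 to 108, Rbp7 at 28.5 and Gng11 at 33.6, which were on no marker list. The summed endothelial markers were 322 RPKM in mouse 14 against 57.7 to 142. The summed RPKM of unnamed loci, which include mitochondrial copies, was 130947 there against 94337 to 106853.

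Mouse 11 was far above the others for Cfd, at 7772 RPKM against 4263 to 5107, and with it for the summed secreted adipokines and carriers at 15123 RPKM. It was the low mouse for Lpl, at 834 RPKM against 976 to 1029. Interferon-induced genes gave Iigp1b at 244 RPKM, Iigp1 at 123, Gbp10 at 101 against 14.5 to 34.7, and Gbp5 at 36.5, and the unnamed LOC100503115 stood at 28.2 RPKM.

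Mouse 7 was far above the others for Ccl8 and the row LOC100503254 at the same place, both at 43.6 RPKM against 0.986 to 14.7, for C1qa at 32.7 and C1qb at 31.9 RPKM, and for the summed markers of adipocyte precursors and fibroblasts, at 178 RPKM against 102 to 121. It was the low mouse for the summed adipocyte markers, at 16755 RPKM against 20465 to 21723.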

How the results depend on the processing

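No paired analysis was possible because the values come from 1 group and from no test. The depth limits rows under about 0.1 RPKM, where a row rests on about 3 reads, and overlapping rows and an unstated rule for reads that fit several places limit what a share means. In 73 of 96 comparisons with a setting other than leaving out a mouse, the counts moved by no more than 1.5 times, the shares by less than the SD between mice, and the median CV by less than its SD over the sets with 1 mouse left out. For 65 named rows the 2 other scalings moved no mean by more than 1.03 times. The median over mice was more than 1.5 times below the mean in 16 of the 65, all among the 25 rows of highest CV. Leaving out 1 mouse cannot move a mean of 6 by as much as 1 SD, so it was read as a ratio, and it lowered 15 of the same 25 rows by over 1.5 times. Without mouse 7 the means were 5.29 RPKM for Ccl8 and LOC100503254, 6.54 for C1qa and 7.26 for C1qb. Without mouse 11 they were 21.3 for Iigp1, 41.8 for Iigp1b, 6.20 for Gbp5, 22.9 for Gbp10, 11.2 for ENSMUSG00000085977 and 6.41 for LOC100503115. Without mouse 14 they were 291 for Rn18s, 289 for LOC790964, 11.6 for Gpihbp1, 6.39 for Rbp7 and 5.80 for 8430408G22Rik. As a share of summed RPKM in place of reads, the top 10, 30, 100, 500 and 1000 rows held 29.5%, 42.8%, 51.8%, 67.2% and 75.0%, and 80 rows held 50%. Ranked by read share, the top 10, 500 and 1000 rows held 22.3%, 57.9% and 66.3%. Without mitochondrial-sequence rows, a setting added after seeing the data, 14 rows passed 1000 RPKM, the top 10, 30, 100, 500 and 1000 held 9.16%, 14.7%, 23.3%, 39.6% and 49.0%, and 651 rows held 50%. Without unnamed rows that overlap a named row, also added after seeing the data, the top 500 and 1000 held 56.5% and 64.0%. The median CV was 16.0% over rows at 100 RPKM or more and 45.9% with no minimum, and the rows with a CV of 50% or more were then 23 and 17412, against 626 at 1 RPKM or more. Leaving out each mouse in turn gave a median CV of 11.5% (without mouse 14) to 14.4%, 89 to 128 rows with a CV of 50% or more, 28 to 29 rows past 1000 RPKM, a top 10 share of 17.0% to 19.2% and 212 to 253 rows for 50% of the reads.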
